A study of Homo sapiens with 6 samples.

Results

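The genes described here are those of MHC class I antigen presentation: the heavy chains HLA-B, HLA-C, HLA-E, HLA-F and HLA-G, the light chain B2M, the transactivator NLRC5, and TAP1 and TAP2, which together form the peptide transporter TAP. They were chosen as every probe set of the array whose annotated gene symbol is 1 of these 9 names. This gave 26 of the 54613 non-control probe sets, and none of the 26 was annotated to several symbols. All 26 were among the 31099 probe sets that entered the tests, which needed at least 2 of the 6 arrays above the median of all deposited values (6.21 on the log2 scale). Of the 26, 23 lay above that median on all 6 arrays.

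RNA was measured in KARPAS-422 and Pfeiffer, established human lymphoma lines of the diffuse large B-cell type, which arises from mature B cells. Each line received a lentivirus encoding either a hairpin that targets EZH2 (shEZH2) or a control hairpin against a sequence not found in mammals (shNTC), with no second EZH2 hairpin labelled, and was labelled as 10 days of treatment. All groups shared the other handling, with serum at 10%, polybrene at 8 µg/ml during 2 days with virus, puromycin at 1 µg/ml for 2 days, and plating into multi-well plates after selection. There were 2 arrays each for KARPAS-422 shEZH2 and KARPAS-422 shNTC, and 1 array each for Pfeiffer shEZH2 and Pfeiffer shNTC. The labels call the KARPAS-422 arrays biological replicates without saying whether the infections were separate, so the p-values cover the array-to-array spread alone, which may be technical. EZH2 is the methyltransferase of the Polycomb complex PRC2, which marks histone H3 and silences genes.

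MHC class I molecules carry peptides of the cell's own proteins to the surface, where CD8 T cells inspect them. The proteasome cuts the peptides, TAP pumps them into the endoplasmic reticulum, and there they are loaded onto a heavy chain paired with beta-2 microglobulin. NLRC5 is a member of the NLR family that enters the nucleus and, with RFX, CREB/ATF and NF-Y factors, turns on class I heavy chain, B2M and TAP1 promoters, and interferons raise the same genes. Loss of class I surface expression is a known feature of many B-cell lymphomas.

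The targeted gene was lower with shEZH2 in both lines. EZH2 had log2 signals of 10.52 and 10.55 in KARPAS-422 shEZH2 cells, against 11.71 and 11.57 in KARPAS-422 shNTC cells, and 10.24 in Pfeiffer shEZH2 cells, against 11.65 in Pfeiffer shNTC cells. The difference was -1.11 (SE 0.10, limma adjusted p = 7.73e-04) in KARPAS-422 and -1.41, untested, in Pfeiffer. Pearson correlations over the tested probe sets were 0.979 between the KARPAS-422 shEZH2 arrays and 0.973 between the shNTC arrays, against 0.944 to 0.948 across arms. Of 8 B cell markers, 7 were measured, with log2 signals between 7.84 and 14.13. Of 8 markers of T and NK cells 4 were measured, and their summed linear signal was 4363 and 3934 in KARPAS-422 shEZH2 cells, against 6292 and 6910 in KARPAS-422 shNTC cells, and CD3D and CD3G were the 2 that fell. The 2 measured of 8 myeloid markers summed to 98.1 and 113 in shEZH2 cells, against 164 and 140 in shNTC cells, and the 6 measured of 8 markers of fibroblasts and epithelium to 12964 and 11510, against 13907.5 and 12926. No listed marker is at 0 in this unit, and the part of these markers in the results below was not tested. The same holds for the 3′ minus 5′ log2 signal of ACTB, a measure of RNA quality, which was 0.138 and 0.175 in KARPAS-422 shEZH2 cells, against 0.0593 and 0.0830 in KARPAS-422 shNTC cells. For GAPDH it was -0.169 and -0.241 in KARPAS-422 shEZH2 cells, against -0.182 and -0.158 in KARPAS-422 shNTC cells, with the arms overlapping.

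In KARPAS-422, EZH2 knockdown came with higher signals for NLRC5, for TAP1 and for every probe set of HLA-B, HLA-C, HLA-E, HLA-F and HLA-G. The 2 brightest B2M probe sets did not pass the test, and the 4 TAP2 probe sets disagreed. Of the 26 probe sets, 22 rose, 0 fell and 4 did not pass in limma's moderated test with Benjamini-Hochberg adjustment over all 31099 probe sets, where 12.0% of all probe sets rose and 8.06% fell. The same 22 and 0 stood at an unadjusted p under 0.05. For this and all later unadjusted counts, those of the lists included, the share over all features was not taken. They therefore cannot be judged against it. The median difference of the 26 was 1.23 log2 units, against 0.04 over all probe sets. In 22 probe sets both shEZH2 arrays lay above both shNTC arrays, which held for 35.0% of all probe sets, in 1 both lay below (28.8% of all), and in 3 the arms overlapped. Over all probe sets the split of calls depended on the scaling, with 3742 higher and 2506 lower as deposited and 2357 higher and 6025 lower after centring each array on its median, which shifted the median of all differences to -0.18. With that centring 20 of the 26 rose and 1, B2M 201891_s_at, fell. In bulk RNA, more RNA per cell and more cells that express a gene cannot be told apart.

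**Figure D1:**
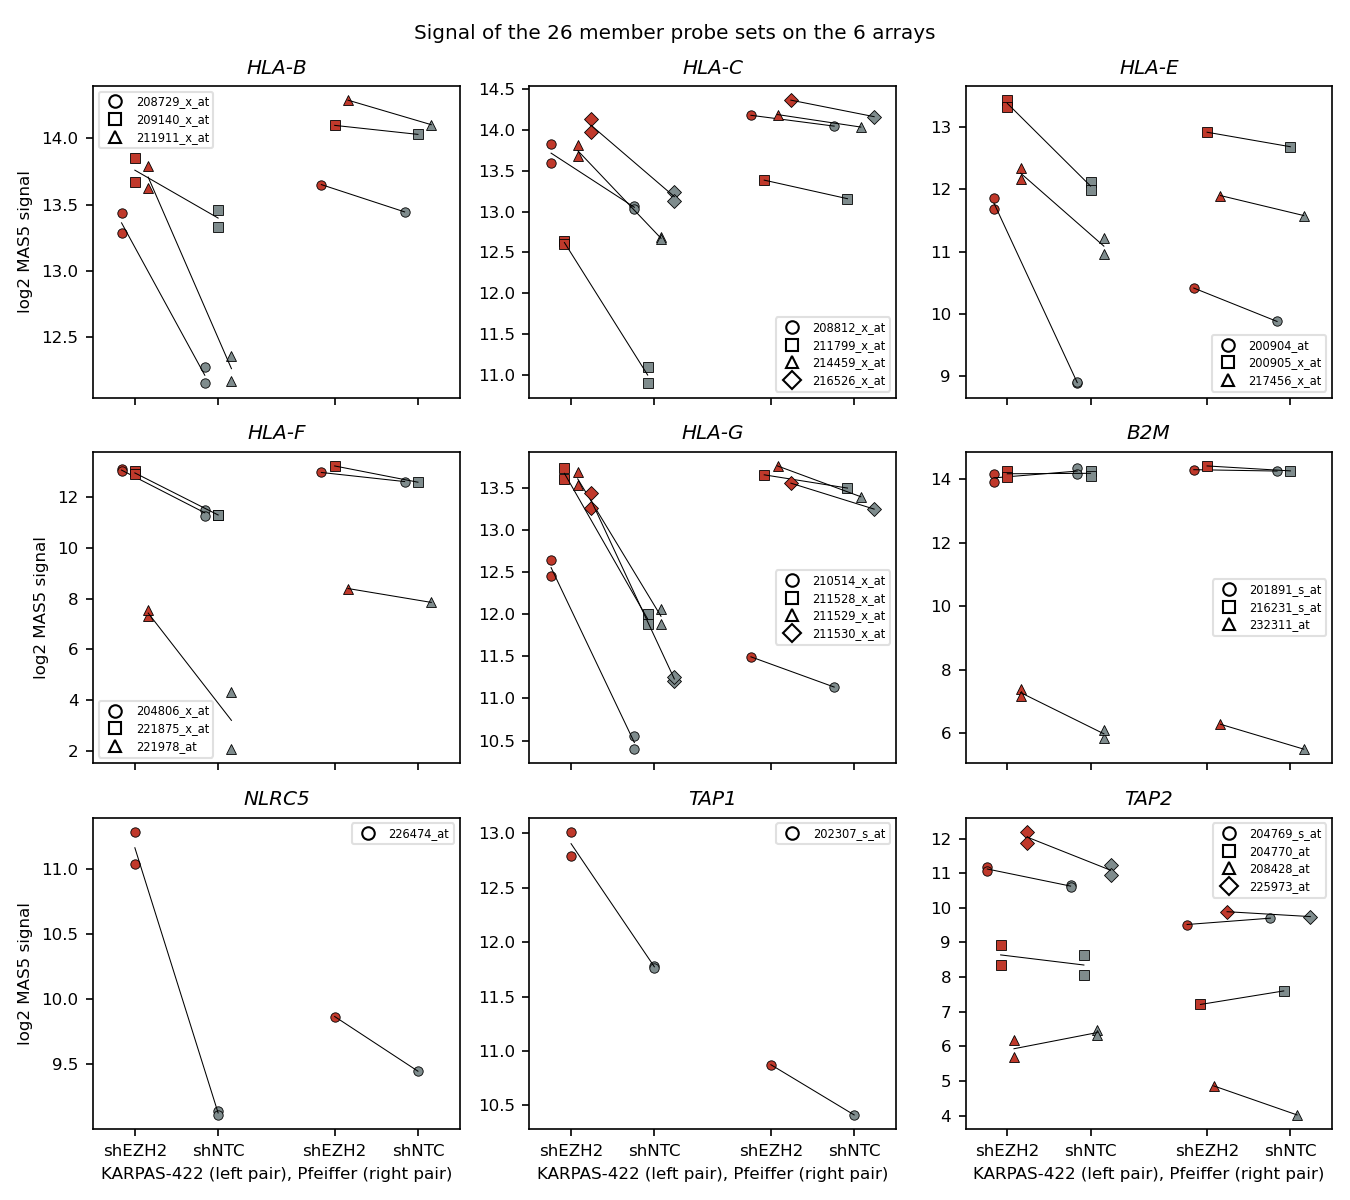
Log2 MAS5 signal (vertical axes, scaled separately for each gene) of the 26 probe sets on the 6 arrays, 1 panel per gene. Within each panel the left pair of columns is KARPAS-422 and the right pair Pfeiffer, with shEZH2 (red) left of shNTC (grey), 1 point per array and lines between arm means. In KARPAS-422 the red points of the HLA genes, NLRC5 and TAP1 lie above the grey ones, the 2 bright B2M probe sets near 14 overlap or nearly so, and in Pfeiffer most lines are flatter.

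The promoters of 7 of the 9 genes could be matched by symbol in RefSeq's promoter table (GRCh38.p14), and those of HLA-E and NLRC5 could not. The stretch between bases -200 and -31 before the annotated start is shown. Class I promoters are known for a shared arrangement of sites, and 4 of the 7 genes are heavy chains that rose. HLA-E, which also rose, is missing here. In all, 5 patterns were searched on both strands, chosen after the sequences had been seen. They were TGACG, the core of a CREB/ATF site, and CCAAT, the NF-Y site. The interferon element was a pair of GAAA runs with any 2 bases between them, its close form was GAANNGAAA, and the NF-kappaB pattern was GGG, any 2 bases, TT, any 1 base and CC. Matches of different patterns were allowed to overlap. Capitals mark the matches, each sequence is written 5′ to 3′ along its gene's strand, and a pattern on the opposite strand appears as its reverse complement (ATTGG for CCAAT). HLA-G is shown for the most downstream of its 3 annotated starts and TAP1 for the first of its 2. The windows of the other starts of both genes held 0 matches to each of the 5 patterns. The starts shown are thus the only ones of these genes with a match.
HLA-B (chr6:31357210-31357379, minus strand): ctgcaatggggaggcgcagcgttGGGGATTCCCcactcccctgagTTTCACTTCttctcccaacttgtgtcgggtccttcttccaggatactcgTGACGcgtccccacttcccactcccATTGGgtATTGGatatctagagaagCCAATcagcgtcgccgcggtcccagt
HLA-C (chr6:31272123-31272292, minus strand): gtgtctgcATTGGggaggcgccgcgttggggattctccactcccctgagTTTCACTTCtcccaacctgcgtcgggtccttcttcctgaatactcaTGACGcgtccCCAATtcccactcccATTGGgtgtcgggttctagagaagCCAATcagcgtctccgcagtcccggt
HLA-F (chr6:29723234-29723403, plus strand): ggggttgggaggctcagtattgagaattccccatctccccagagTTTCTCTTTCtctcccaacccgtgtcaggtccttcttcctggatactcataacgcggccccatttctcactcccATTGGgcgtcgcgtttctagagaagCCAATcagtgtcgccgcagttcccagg
HLA-G (chr6:29827625-29827794, plus strand): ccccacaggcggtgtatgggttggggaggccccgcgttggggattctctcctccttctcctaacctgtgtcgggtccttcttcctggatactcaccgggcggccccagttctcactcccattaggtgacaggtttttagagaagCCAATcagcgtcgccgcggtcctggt
B2M (chr15:44711317-44711486, plus strand): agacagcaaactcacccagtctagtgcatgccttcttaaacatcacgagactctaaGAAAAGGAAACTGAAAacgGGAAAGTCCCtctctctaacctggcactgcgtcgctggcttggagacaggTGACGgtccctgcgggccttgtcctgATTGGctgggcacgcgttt
TAP1 (chr6:32853735-32853904, minus strand): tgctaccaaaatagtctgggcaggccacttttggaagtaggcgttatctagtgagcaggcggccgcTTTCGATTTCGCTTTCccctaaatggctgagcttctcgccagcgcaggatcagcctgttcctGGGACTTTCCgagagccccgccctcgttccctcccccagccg
TAP2 (chr6:32838770-32838939, minus strand): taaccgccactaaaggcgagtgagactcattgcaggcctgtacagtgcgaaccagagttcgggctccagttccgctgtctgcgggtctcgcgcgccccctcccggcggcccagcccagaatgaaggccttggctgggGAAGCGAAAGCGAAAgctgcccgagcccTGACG

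In the windows of 300 bases, HLA-B, HLA-C and B2M each held TGACG as well as CCAAT and an interferon element of either form. The HLA-B window had the NF-kappaB pattern at -177 to -168 and TGACG at -106 to -102 with CCAAT at -56 to -52, and the HLA-C window had the pair at -105 to -101 and -56 to -52. HLA-F had the CCAAT at -57 to -53 and the interferon element at -156 to -147, without TGACG. The HLA-G window had CCAAT at -56 to -52 as its only match. In B2M, TGACG at -75 to -71 came before CCAAT at -49 to -45, downstream of 2 overlapping interferon elements. TAP1 had 2 overlapping interferon elements between -134 and -119 and the NF-kappaB pattern at -72 to -63, and TAP2 had overlapping interferon elements of both forms between -63 and -49 and TGACG at -35 to -31. Of all 35116 promoter windows, 24.6% held TGACG and 34.6% held CCAAT, while 3.57% held the interferon element, 7.66% its close form and 5.68% the NF-kappaB pattern. The windows of the other HLA-G and TAP1 starts, with 0 matches, belong beside these shares too. A match describes the letters and is no measured binding site.

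**Figure D2:**
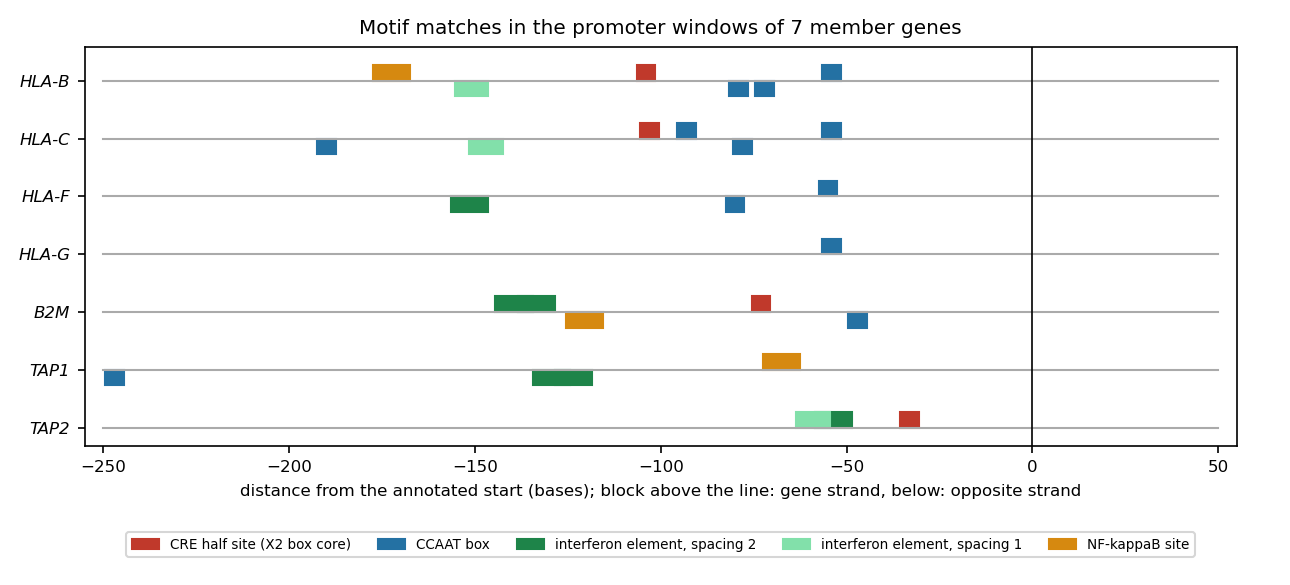
Matches to the 5 patterns in the promoter windows of 7 genes, by distance in bases from the annotated start (horizontal axis). The other starts of HLA-G and TAP1, without matches, are left out. Blocks above a line are on the gene's strand and blocks below it on the opposite strand, and colours give the pattern. The CCAAT block near -55 recurs in HLA-B, HLA-C, HLA-F and HLA-G, and HLA-B, B2M and TAP1 each hold an interferon element of either form and an NF-kappaB pattern.

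NLRC5, the class I transactivator, has 1 probe set on the array. Its log2 signals were 11.29 and 11.04 in KARPAS-422 shEZH2 cells, against 9.14 and 9.11 in KARPAS-422 shNTC cells. The arms lay far apart compared with the gap between replicates, and the rise of 2.04 log2 units (SE 0.13, limma adjusted p = 3.41e-04) is 4.11-fold. In Pfeiffer NLRC5 stood at 9.87 in shEZH2 cells, against 9.45 in shNTC cells. The mean position of NLRC5 among all probe sets of an array was the 91.8th percentile in KARPAS-422 shEZH2 cells, against the 78.8th in KARPAS-422 shNTC cells.

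HLA-E presents leader peptides of other class I molecules to the NKG2A receptor of NK cells. Its probe set 200904_at had log2 signals of 11.87 and 11.69 in KARPAS-422 shEZH2 cells, against 8.89 and 8.91 in KARPAS-422 shNTC cells. That difference of 2.88 (SE 0.11, adjusted p = 9.38e-05, limma) is 7.36-fold, with the arms well apart and the shNTC arrays almost equal. The other HLA-E probe sets end in _x_at, a suffix that Affymetrix gives to probe sets able to bind several related transcripts. They rose by 1.33 (200905_x_at) and 1.17 (217456_x_at) log2 units.

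HLA-F, a non-classical heavy chain that can reach the surface without peptide, had 3 probe sets that rose. Probe set 204806_x_at had log2 signals of 13.12 and 13.02 in KARPAS-422 shEZH2 cells, against 11.51 and 11.26 in KARPAS-422 shNTC cells. Probe set 221875_x_at had 13.02 and 12.90 in KARPAS-422 shEZH2 cells, against 11.30 and 11.30 in KARPAS-422 shNTC cells. Their differences, 1.68 and 1.66 log2 units, were nearly equal, and neither pair of arms overlapped. The dim probe set 221978_at had 7.30 and 7.56 in KARPAS-422 shEZH2 cells, against 2.06 and 4.33 in KARPAS-422 shNTC cells, both of the shNTC values under the median of the deposited values. Its difference of 4.23 (SE 0.69, limma adjusted p = 0.00842) has an uncertain size, since it was 2.80 with 16 and 1.64 with 64 added to each linear value, and it did not pass without shEZH2 replicate 2 (adjusted p = 0.0512).

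HLA-G is best known from the placental trophoblast, where it engages inhibitory receptors. All 4 of its probe sets end in _x_at, so RNA of other class I genes may reach them and the signal is not that of HLA-G alone. Probe set 211530_x_at had log2 signals of 13.44 and 13.26 in KARPAS-422 shEZH2 cells, against 11.21 and 11.25 in KARPAS-422 shNTC cells. That rise of 2.12 (SE 0.09, limma adjusted p = 9.38e-05) exceeded the gap between replicates many times over. Probe set 210514_x_at had 12.45 and 12.65 in KARPAS-422 shEZH2 cells, against 10.55 and 10.40 in KARPAS-422 shNTC cells. The remaining pair, 211528_x_at and 211529_x_at, rose by 1.73 and 1.63 log2 units, so the 4 differences lay between 1.63 and 2.12.

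HLA-B and HLA-C are classical heavy chains that present peptides to T cells, and all 7 of their probe sets end in _x_at. HLA-B 211911_x_at had log2 signals of 13.79 and 13.62 in KARPAS-422 shEZH2 cells, against 12.36 and 12.17 in KARPAS-422 shNTC cells. HLA-C 211799_x_at had 12.64 and 12.60 in KARPAS-422 shEZH2 cells, against 11.10 and 10.90 in KARPAS-422 shNTC cells. In both probe sets the arms were clearly apart, with rises of 1.44 (SE 0.10, adjusted p = 4.33e-04) for HLA-B and 1.62 (SE 0.10, adjusted p = 2.58e-04, both limma) for HLA-C. The probe sets of each gene did not rise to the same degree. HLA-B spanned 0.36 to 1.44 log2 units over 3 probe sets, and HLA-C 0.66 to 1.62 over 4. The smallest rise was that of HLA-B 209140_x_at, with 13.85 and 13.67 in KARPAS-422 shEZH2 cells, against 13.46 and 13.34 in KARPAS-422 shNTC cells (0.36, SE 0.09, limma adjusted p = 0.0318). That call was lost after median centring (0.14, adjusted p = 0.300) and when shEZH2 replicate 1 (0.27, adjusted p = 0.137), when shNTC replicate 1 (0.43, adjusted p = 0.0596) and when shNTC replicate 2 (0.30, adjusted p = 0.137) was left out.

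B2M is the invariant light chain that every class I molecule needs. Probe set 201891_s_at had log2 signals of 14.18 and 13.91 in KARPAS-422 shEZH2 cells, against 14.34 and 14.18 in KARPAS-422 shNTC cells. Probe set 216231_s_at had 14.26 and 14.09 in KARPAS-422 shEZH2 cells, against 14.26 and 14.12 in KARPAS-422 shNTC cells. The arms met or overlapped in both, and the differences of -0.21 (SE 0.11, adjusted p = 0.195) and -0.01 (SE 0.09, adjusted p = 0.927, both limma) did not pass. Both probe sets lay above the 99.7th percentile of their arrays in each arm, with the highest signal of any probe set on an array between 14.45 and 14.82, and how much room for a rise these signals left was not tested. Their direction followed the scaling: 201891_s_at fell after median centring (-0.44, adjusted p = 0.0246) but stood at 0.10 after cyclic loess (adjusted p = 0.361), while 216231_s_at rose after quantile normalization (0.23, adjusted p = 0.0146) and cyclic loess (0.31, adjusted p = 0.0138). The dim B2M probe set 232311_at had 7.39 and 7.17 in KARPAS-422 shEZH2 cells, against 5.86 and 6.11 in KARPAS-422 shNTC cells, a rise of 1.30 (SE 0.31, limma adjusted p = 0.0285). It entered the test only through the 3 shEZH2 arrays of both lines, the only ones above the median of the deposited values, so its call is no support for a rise of B2M. The call was lost with no filter (adjusted p = 0.0589), and it missed the threshold when shEZH2 replicate 1 (adjusted p = 0.171), when shEZH2 replicate 2 (adjusted p = 0.115) and when shNTC replicate 1 (adjusted p = 0.0760) was left out.

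TAP1 has 1 probe set, with log2 signals of 13.02 and 12.80 in KARPAS-422 shEZH2 cells, against 11.78 and 11.76 in KARPAS-422 shNTC cells. It rose by 1.13 (SE 0.10, limma adjusted p = 0.00125), or 2.19-fold. For its partner TAP2, probe set 225973_at had 12.20 and 11.89 in KARPAS-422 shEZH2 cells, against 11.24 and 10.94 in KARPAS-422 shNTC cells. It rose by 0.96 (SE 0.15, limma adjusted p = 0.00770) without overlap between the arms, a call lost without the intensity trend (adjusted p = 0.0803). TAP2 204769_s_at had 11.17 and 11.08 in KARPAS-422 shEZH2 cells, against 10.66 and 10.59 in KARPAS-422 shNTC cells (0.49, SE 0.11, limma adjusted p = 0.0209), a call lost after median centring (adjusted p = 0.106) and without any 1 of the 4 KARPAS-422 arrays (adjusted p of 0.0578 to 0.104). The other TAP2 probe sets did not pass. Probe set 204770_at had 8.93 and 8.35 in KARPAS-422 shEZH2 cells, against 8.65 and 8.05 in KARPAS-422 shNTC cells, with the arms interleaved. Probe set 208428_at had 6.18 and 5.68 in KARPAS-422 shEZH2 cells, against 6.47 and 6.32 in KARPAS-422 shNTC cells, close to the median of the deposited values.

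**Figure D3:**
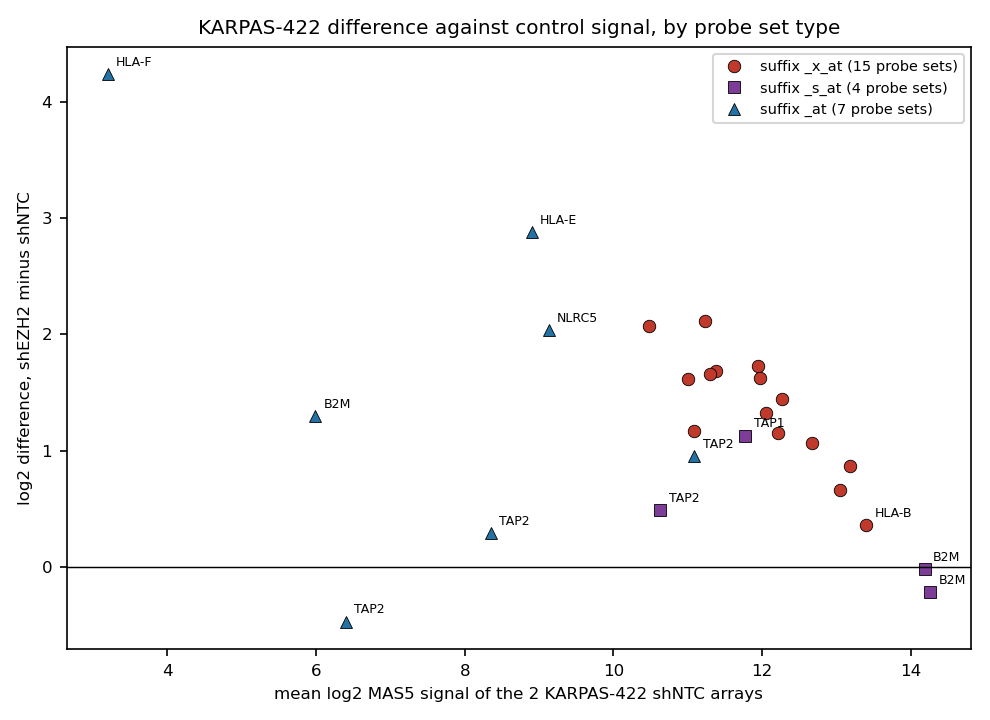
KARPAS-422 difference, shEZH2 minus shNTC (vertical axis, log2 units), against the mean log2 signal of the 2 KARPAS-422 shNTC arrays (horizontal axis), 1 point per probe set, with colour and shape for the probe set suffix. Among the 15 red _x_at points the difference declines as the control signal increases, and the 2 B2M points at the far right lie at or just under 0.

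The KARPAS-422 differences are given here by probe set suffix and by signal in control cells. All 15 probe sets ending in _x_at rose, with a median of 1.44 log2 units and a range of 0.36 to 2.12. Of the 4 ending in _s_at, which can bind several transcripts of a gene or family, 2 rose (median 0.24), and of the 7 ending in _at alone 5 rose (median 1.30, range -0.47 to 4.23). All the _x_at probe sets are of HLA genes and the _s_at ones of B2M, TAP1 and TAP2. Suffix and gene therefore cannot be told apart, and the share of calls over all probe sets of each suffix was not taken. Across the 26 probe sets, Spearman's rho between the difference and the shNTC level was -0.40. The points share the shNTC arrays, which enter both measures, and probe sets of a gene or of related HLA genes are not independent. Among the _at probe sets those that rose were of HLA-E, HLA-F, NLRC5 and TAP2, beside the dim one of B2M.

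In Pfeiffer, with 1 array per arm and no test, the genes were little higher with shEZH2. No probe set of the 26 reached a difference of 1 log2 unit in either direction, against 3.75% of all probe sets higher by at least that much and 1.72% lower. The differences were above 0 in 24 of the 26, against 54.5% of all probe sets, and their median was 0.23, against 0.03 over all. Both exceptions were TAP2 probe sets, 204770_at at -0.39 and 204769_s_at at -0.18. HLA-E 200904_at stood at 10.42 in Pfeiffer shEZH2 cells, against 9.88 in Pfeiffer shNTC cells. HLA-E pairs with beta-2 microglobulin, whose brightest probe sets stood at 14.30 (201891_s_at) and 14.42 (216231_s_at) in Pfeiffer shEZH2 cells, against 14.26 and 14.26 in Pfeiffer shNTC cells. TAP1 stood at 10.87 in Pfeiffer shEZH2 cells, against 10.41 in Pfeiffer shNTC cells, and HLA-F 221875_x_at at 13.23, against 12.59. HLA-G 211530_x_at stood at 13.55 in Pfeiffer shEZH2 cells, against 13.24 in Pfeiffer shNTC cells. Differences were 0.07 to 0.21 for HLA-B, 0.13 to 0.23 for HLA-C and 0.16 to 0.37 for HLA-G, and 0.23 to 0.64 over HLA-E and HLA-F.

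**Figure D4:**
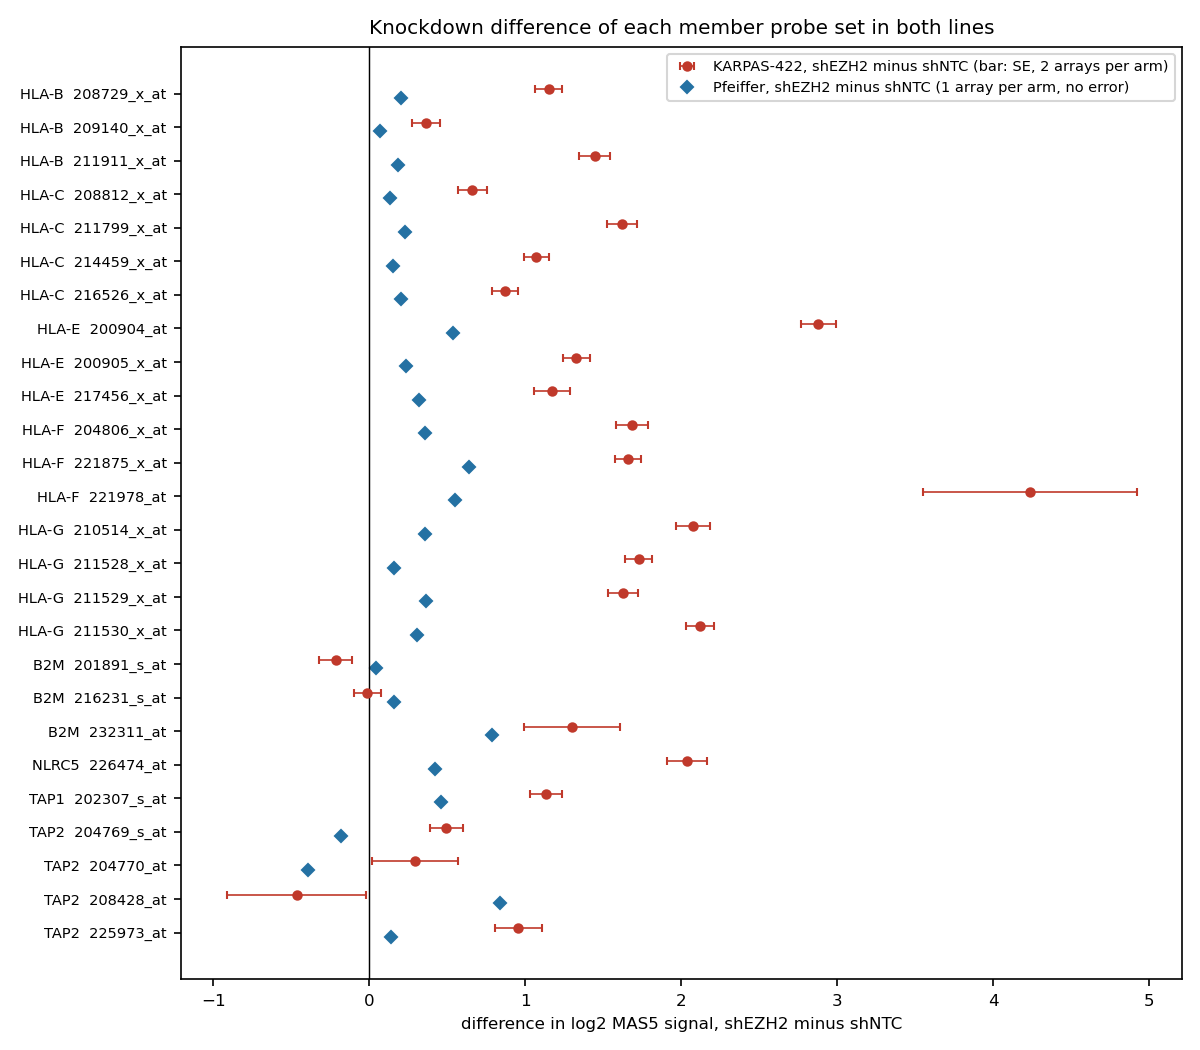
Difference in log2 MAS5 signal, shEZH2 minus shNTC (horizontal axis), for each of the 26 probe sets (rows), in KARPAS-422 (red circles, bar: standard error, 2 arrays per arm) and in Pfeiffer (blue diamonds, 1 array per arm, no error). Red circles of the HLA probe sets and NLRC5 lie to the right of the blue diamonds, while the 2 bright B2M probe sets stay near 0 in both lines.

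The effect of the hairpin was larger in KARPAS-422 than in Pfeiffer for the HLA heavy chains and NLRC5. In Pfeiffer shNTC cells HLA-B 211911_x_at stood at 14.10 and HLA-C 216526_x_at at 14.16, where the highest signal on the array was 14.65. HLA-E 200904_at stood at 9.88 and NLRC5 at 9.45 there. How much room for a rise the bright signals left was not tested. In limma's test of the KARPAS-422 effect minus the Pfeiffer effect, 13 of the 26 probe sets were higher and 0 lower, where 0.820% of all probe sets were higher and 0.222% lower. At an unadjusted p under 0.05 there were 20 and 0, with no share over all probe sets taken at that threshold. The 13 were 2 each for HLA-B, HLA-C, HLA-E and HLA-F, all 4 of HLA-G, and NLRC5. HLA-E 200904_at differed by 2.34 log2 units (SE 0.20, adjusted p = 0.00752) and NLRC5 by 1.62 (SE 0.22, adjusted p = 0.0300). TAP1 differed by 0.67 (SE 0.18, adjusted p = 0.153) and did not pass, nor did any probe set of TAP2 or B2M. This test assumes that the lone Pfeiffer arrays vary like the KARPAS-422 ones, and it called 0 of the 26 without KARPAS-422 shEZH2 replicate 1 and 3 without shEZH2 replicate 2.

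Over both lines, with a term for the line and 3 arrays per arm, the median difference of the 26 probe sets was 0.94 log2 units, and 13 were higher and 0 lower, against 2.61% and 1.23% of all probe sets. At an unadjusted p under 0.05 there were 21 and 0, again without the share over all probe sets. The 13 included NLRC5 at 1.50 (SE 0.30, adjusted p = 0.0421), TAP1 at 0.91 (SE 0.15, adjusted p = 0.0304), all 3 probe sets of HLA-E and 3 of the 4 of HLA-G, and their adjusted p lay between 0.0243 and 0.0490. The calls rested on each KARPAS-422 array, since none was left without any 1 of them. Without 1 Pfeiffer array the line term takes up the other, so the hairpin difference comes from the KARPAS-422 arrays alone. That fit repeats the KARPAS-422 test and cannot show how stable the effect over both lines is. With the replicate number as a block 0 of the 13 calls were left, and 0 without the intensity trend.

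The lines differed in class I signal with the control hairpin. In KARPAS-422 shNTC cells set against Pfeiffer shNTC cells, all 17 probe sets of HLA-B, HLA-C, HLA-E, HLA-F and HLA-G were lower in limma's test. Those higher were 4, of TAP1 and 3 of TAP2, where 19.5% of all probe sets were higher and 20.5% lower. TAP2 208428_at had only its 2 KARPAS-422 shNTC arrays (6.47 and 6.32) above the median of the deposited values. It entered the test through them alone, so its call is no support for a higher TAP2 level. HLA-B and HLA-C differed by -2.15 to -0.63 log2 units, and HLA-E, HLA-F and HLA-G by -4.65 to -0.49. The -4.65 is that of the dim HLA-F 221978_at (2.06 and 4.33 in KARPAS-422 shNTC cells), and its size is uncertain. It was -3.19 with 16 and -1.96 with 64 added to each linear value. The next largest of that set was -2.01, for HLA-G 211530_x_at. HLA-C 211799_x_at, for instance, stood at 11.10 and 10.90 in KARPAS-422 shNTC cells, against 13.16 in Pfeiffer shNTC cells. Probe sets of 1 gene gave unlike differences, such as -0.63, -1.23 and -1.84 for HLA-B. Whether they bind the RNA of both lines equally well was not tested. TAP1 stood 1.36 higher (SE 0.13, adjusted p = 2.11e-04) and TAP2 225973_at 1.34 higher (SE 0.18, adjusted p = 0.00128). The HLA-E 217456_x_at call was lost after median centring (-0.33, adjusted p = 0.108), with no filter (adjusted p = 0.0619) and without shNTC replicate 2 (-0.37, adjusted p = 0.107). Without the intensity trend 13 of the 17 stayed lower. NLRC5 did not pass (-0.32, SE 0.16, adjusted p = 0.150), nor did any probe set of B2M. The lone Pfeiffer array is again assumed to vary like the KARPAS-422 ones.

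With shEZH2, the KARPAS-422 signals of the classical chains came near those of Pfeiffer control cells, NLRC5 stood above them, and TAP1, already higher in KARPAS-422 shNTC cells, stood further above. KARPAS-422 shEZH2 minus Pfeiffer shNTC was -0.54 to -0.08 log2 units over the 7 probe sets of HLA-B and HLA-C, and -0.42 to 1.90 over the 10 of HLA-E, HLA-F and HLA-G. For NLRC5 it was 1.72 and for TAP1 2.49. These values carry no test, and they take the probe sets to read both lines alike, which was not tested either.

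Beyond the 9 genes, other genes of the class I pathway were compared in KARPAS-422. They were taken from 5 lists and represented by their brightest tested probe set in a table of 13036 genes, of which 13.1% rose and 12.3% fell. Among these, 8 of the 9 genes described above rose, B2M did not pass, and their median difference was 1.13 log2 units, against -0.02 over all genes. Of 64 measured genes on the 5 lists 21 rose, 10 fell and 33 did not pass, the share that fell being near that of all genes. The split followed the scaling, with 15 higher and 14 lower after median centring and 20 higher and 2 lower after cyclic loess.

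**Figure D5:**
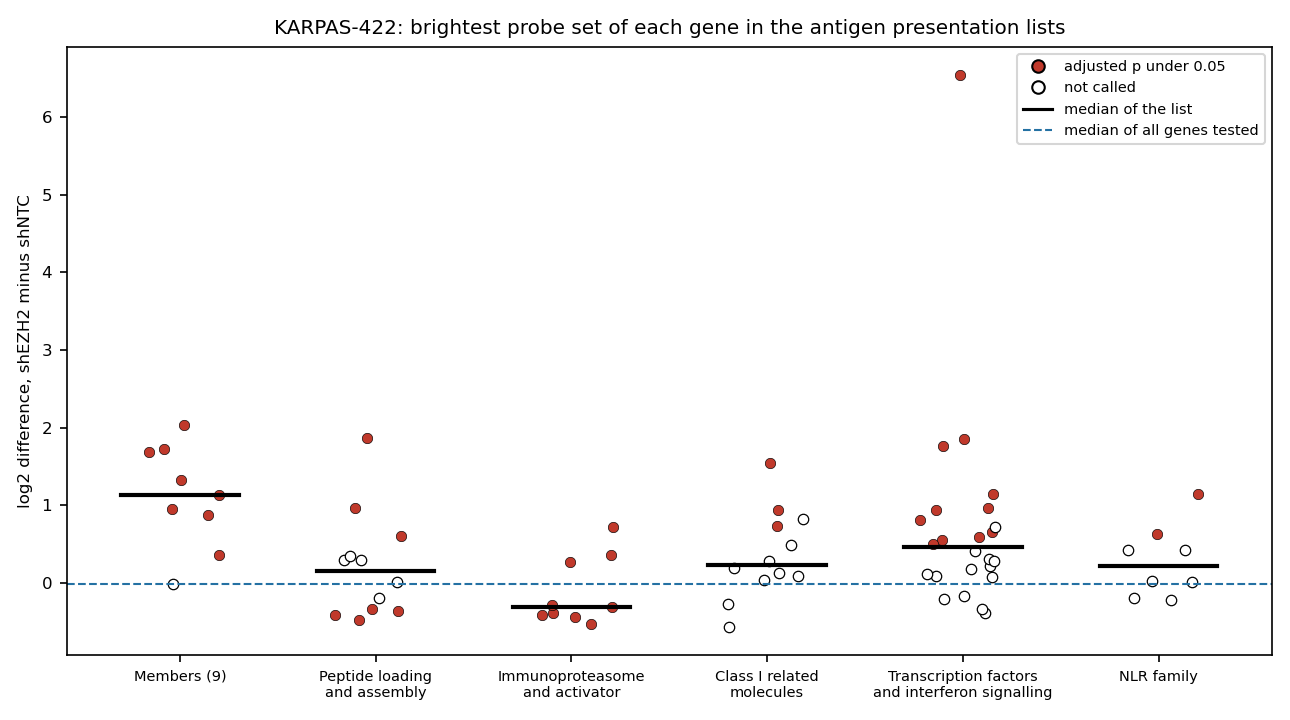
KARPAS-422 difference in log2 signal, shEZH2 minus shNTC (vertical axis), of the brightest probe set of each gene, by list (horizontal axis). Filled points passed limma's adjusted p threshold of 0.05, open points did not, short black bars are list medians and the dashed line is the median of all genes. The 9 genes described above lie highest as a list, the single point near 6.5 is IFNB1, and the immunoproteasome list lies mostly under 0.

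In the list of peptide loading and assembly, all 12 genes were measured, 3 rose and 4 fell, with a median of 0.16. TAPBPL, a homologue of tapasin that edits the peptides of class I molecules, had 8.22 and 8.32 in KARPAS-422 shEZH2 cells, against 6.51 and 6.30 in KARPAS-422 shNTC cells, a rise of 1.87 (SE 0.22, limma adjusted p = 0.00194). The aminopeptidases that trim peptides in the endoplasmic reticulum rose too, ERAP2 by 0.96 and ERAP1 by 0.60. The chaperones HSPA5, CANX and CALR and the export receptor BCAP31 fell by 0.48, 0.42, 0.34 and 0.36, and 0 of these 4 calls were left after cyclic loess. Leaving out 1 array ended the calls of ERAP1 (without shEZH2 replicate 1, adjusted p = 0.0640, or 2, 0.0936), CANX (without shEZH2 replicate 2, 0.0603), HSPA5 (without shNTC replicate 2, 0.155, or either shEZH2 array, 0.158 and 0.233) and, without any 1 of the 4 arrays, BCAP31 (0.0703 to 0.144) and CALR (0.0563 to 0.168). Of 9 measured genes of the immunoproteasome list 3 rose and 6 fell, with a median of -0.30. PSMB10 and PSMB9, catalytic subunits of the immunoproteasome, rose by 0.72 and 0.36, and PSME1, part of the proteasome activator, by 0.27, while PSMB8, the other catalytic subunit of the immunoproteasome, fell by 0.29 (limma adjusted p = 0.0404). The constitutive subunits PSMB5, PSMB6 and PSMB7 fell by 0.52, 0.44 and 0.39. PSME3, a nuclear activator, fell by 0.42, and the assembly factor POMP fell by 0.30 in its brightest probe set. The 2 kept probe sets of POMP went opposite ways, at -0.30 and 0.55. PSMB8 and POMP lie outside the naming rule and were added after their values were seen. Both lost their calls after quantile normalization and after cyclic loess (PSMB8 -0.08, POMP -0.04), and without any 1 of the 4 KARPAS-422 arrays (adjusted p of 0.0738 to 0.173 for PSMB8 and 0.0628 to 0.0940 for POMP). After median centring PSMB9 and PSME1 no longer passed (0.14 and 0.05), and after cyclic loess PSMB6 and PSMB7 did not (-0.27 and -0.18). Without shEZH2 replicate 1 the calls of PSMB9 (adjusted p = 0.135), PSME1 (0.181), PSMB5 (0.0661), PSME3 (0.0545) and PSMB7 (0.0606) were lost, and without shEZH2 replicate 2 those of PSME1 (0.0687), PSMB5 (0.0592), PSMB6 (0.0790), PSME3 (0.0936) and PSMB7 (0.0841). Without shNTC replicate 1 PSMB9 (0.0520), PSME1 (0.129) and PSMB7 (0.0770) did not pass, and without shNTC replicate 2 PSMB9 (0.105), PSME1 (0.146) and PSME3 (0.0595). The PSMB10 call stood without each of the 4 arrays but not without the intensity trend (adjusted p = 0.0591). TAP2, PSMB8, TAP1 and PSMB9 are neighbours on chromosome 6.

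Among molecules related to class I, 12 of 16 genes were measured, 3 rose and 0 fell (4 and 0 at an unadjusted p under 0.05), with a median of 0.24. HLA-J, a class I pseudogene read by an _x_at probe set, had 12.31 and 12.24 in KARPAS-422 shEZH2 cells, against 10.75 and 10.71 in KARPAS-422 shNTC cells (1.54, SE 0.09, limma adjusted p = 1.07e-04). Its signal was 12.30 in Pfeiffer shEZH2 cells, against 11.95 in Pfeiffer shNTC cells, and the KARPAS-422 effect exceeded the Pfeiffer effect by 1.19 (limma adjusted p = 0.0142). CD1C, which presents lipids, rose by 0.93, and MR1, which presents vitamin metabolites, by 0.74. CD1C did not pass once shEZH2 replicate 1 was left out (adjusted p = 0.0663), nor did MR1 without shEZH2 replicate 1 (0.0555) or 2 (0.0930).

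The list of class I transcription factors and interferon signalling had 24 of 27 genes analysed, of which 11 rose and 0 fell (14 and 2 at an unadjusted p under 0.05), with a median of 0.46. IFNB1, the interferon beta gene, had 8.97 and 9.65 in KARPAS-422 shEZH2 cells, against 1.92 and 3.61 in KARPAS-422 shNTC cells, and 2.35 in Pfeiffer shEZH2 cells, against 2.93 in Pfeiffer shNTC cells. Only the KARPAS-422 shEZH2 arrays stood above the median of the deposited values. IFNB1 entered the test through them alone, so this call, counted among the 11, is by itself no support for a rise. With no filter IFNB1 passed as well (limma adjusted p = 0.00438). The rise of 6.54 (SE 0.81, limma adjusted p = 0.00246) has an uncertain size because the control signals were dim. It was 3.28 with 64 added to each linear value, and it did not pass without shEZH2 replicate 1 (6.88, adjusted p = 0.0515) or 2 (6.21, adjusted p = 0.0657). IRF1, a factor that binds interferon elements of class I promoters, had 9.20 and 9.27 in KARPAS-422 shEZH2 cells, against 7.08 and 7.70 in KARPAS-422 shNTC cells (1.85, adjusted p = 0.00236, limma). IRF7, a driver of interferon production, rose by 1.76, more than in Pfeiffer by 1.03 (limma adjusted p = 0.0470). RFX5, the DNA-binding RFX subunit, rose by 0.60 (SE 0.11, adjusted p = 0.0107), but not without shEZH2 replicate 1 (adjusted p = 0.0652). CIITA, the class II transactivator and nearest relative of NLRC5 in function, rose by 1.14 in its brightest probe set, while its kept probe sets spanned -0.31 to 1.14, and it did not pass once shEZH2 replicate 2 was left out (0.88, adjusted p = 0.1000). Of 8 measured genes of the NLR list 2 rose and 0 fell (3 and 0 at an unadjusted p under 0.05), CIITA and NOD1 at 0.63, and the NOD1 call was lost under each of the 3 other scalings and without any 1 of the 4 KARPAS-422 arrays (adjusted p of 0.0726 to 0.199).

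The genes whose 6 signals, each centred on its mean, lay closest to those of NLRC5 by root mean square distance among 13027 genes were CTSO (0.130 log2 units), BMPR2 (0.141), DLK1 (0.202), H2BC9 (0.204) and TGFBR1 (0.208). CTSO, a cysteine protease, had 9.38 and 9.05 in KARPAS-422 shEZH2 cells, against 7.30 and 7.10 in KARPAS-422 shNTC cells, and 8.25 in Pfeiffer shEZH2 cells, against 7.50 in Pfeiffer shNTC cells. Closest to the mean profile of the 5 HLA genes and B2M were CLK1 (0.0646), LINC01000 (0.0711), TTC28 (0.0873), GSDMD (0.0939) and NFX1 (0.0945). GSDMD, whose cleaved form opens membrane pores, had 9.58 and 9.36 in KARPAS-422 shEZH2 cells, against 8.40 and 8.40 in KARPAS-422 shNTC cells, and 9.57 in Pfeiffer shEZH2 cells, against 9.49 in Pfeiffer shNTC cells. These distances rest on 6 arrays and describe likeness of profile only.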

How the data were processed

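The deposited table holds 1 value per probe set and array from Affymetrix HG-U133 Plus 2.0 arrays, as the probe annotation names them, and the submitters' processing notes name MAS5 without a version. The authors' deposited values were read as log2 signals, since their antilogs had a 2% trimmed mean of 500 on all 6 arrays; no further normalization was seen, and neither detection calls nor dates of scanning were used here. RNA was extracted with Trizol and RNeasy columns, per the labels' protocols. No pseudocount was added.

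Probe sets were tested with limma 3.58.1 in R 4.3.3 (lmFit, eBayes with an intensity trend, two-sided, Benjamini-Hochberg over 31099 probe sets, threshold 0.05) in a model of 4 groups over 6 arrays, with 2 residual and 5.02 prior degrees of freedom. The fit over both lines had a line term and 3 residual degrees of freedom. Pfeiffer alone had no test. The gene table took the brightest kept probe set with 1 symbol per gene. The number of arrays limits the precision. Scripts were tested on simulated data.

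The members and lists were chosen with earlier results of these data known. The genes named are every member, the non-members EZH2, IFNB1, IRF1, RFX5 and CIITA, and up to 4 called genes per list and direction. Of the genes always to be named, 1 further is not analysed here. Likeness names 5 genes per profile. The replicate numbers do not pair the arms by the labels, and replicate differences correlated at 0.0259 between arms over 2 pairs. Alternatives were quantile normalization, median centring, cyclic loess, other filters, added constants of 16 and 64, no intensity trend, left-out arrays, a replicate block, KARPAS-422 alone, the gene table, and leaving out probe sets ending in _x_at or _s_at. Python 3.11.15 with matplotlib 3.10.9 drew the figures.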

Additional observations from a re-analysis of the deposited data

Results flagged for a closer look

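The response to the hairpin differed between the lines, by limma's test of the KARPAS-422 effect minus the Pfeiffer effect, in 13 probe sets, and in each of them the KARPAS-422 effect was the larger. For HLA-B the difference was 0.94 log2 units in 208729_x_at (adjusted p = 0.0472) and 1.26 in 211911_x_at. For HLA-C it was 1.39 in 211799_x_at and 0.92 in 214459_x_at. For HLA-E it was 2.34 in 200904_at and 1.09 in 200905_x_at, and for HLA-F 1.33 in 204806_x_at and 1.02 in 221875_x_at. HLA-G had differences of 1.72 in 210514_x_at, 1.57 in 211528_x_at, 1.26 in 211529_x_at and 1.81 in 211530_x_at. NLRC5 differed by 1.62. These probe sets stood lower in KARPAS-422 shNTC cells than in Pfeiffer shNTC cells, by 2.15 (HLA-C 211799_x_at) to 0.32 (NLRC5, not past the test) log2 units. The same shNTC arrays enter both measures with opposite sign, so the lower control signal is no separate observation. IFNB1, which stood at 8.97 and 9.65 in KARPAS-422 shEZH2 cells and at 2.35 in Pfeiffer shEZH2 cells, differed between the lines by 7.12 (adjusted p = 0.0593, not past the threshold), and its part in the class I difference was not tested.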

How the results depend on the processing

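In KARPAS-422 the calls of NLRC5, TAP1, all 4 HLA-G probe sets, HLA-B 208729_x_at and 211911_x_at, HLA-C 211799_x_at and 214459_x_at, HLA-E 200904_at and 200905_x_at, and HLA-F 204806_x_at and 221875_x_at stood under every alternative that tested them. Of the 26, 22 rose as deposited, and 19 to 20 did when 1 array was left out, 15 without the intensity trend, 8 genes in the gene table and 5 without _x_at and _s_at probe sets. The 1 that fell after median centring or with a replicate block was B2M 201891_s_at. B2M 216231_s_at turned from -0.01 to 0.23 after quantile normalization, 0.31 after cyclic loess, and it ranged between -0.10 and 0.072 with 1 array left out (0.072 without shEZH2 replicate 2, 0.056 without shNTC replicate 1). Over all probe sets, higher and lower calls (3742 and 2506) were 2357 and 6025 after median centring, 994 and 118 without the trend, 1410 to 2972 and 1003 to 1334 with 1 array left out, 1702 and 1603 in the gene table, 2425 and 1081 without _x_at and _s_at probe sets, and 1548 lower without a filter. Over both lines the 13 higher calls became 2 without a filter, 0 without the trend and 0 with the replicate block. They became 6 in the gene table and 2 without _x_at and _s_at probe sets, and none was left without any 1 KARPAS-422 array. Without 1 Pfeiffer array that fit is the KARPAS-422 test again. For the difference between lines the 13 became 4 without a filter, 0 without the trend, 0 to 11 with 1 array left out, 4 in the gene table and 2 without _x_at and _s_at probe sets. Between the control lines the 4 higher and 17 lower became 2 and 5 in the gene table, 2 and 2 without _x_at and _s_at probe sets, and 13 lower without the trend. The list genes (21 higher, 10 lower) became 7 and 0 without the trend and 11 to 19 and 0 to 5 with 1 array left out, with 6 lower after quantile normalization, 2 after cyclic loess and 5 without _x_at and _s_at probe sets. The replicate block left 22 member calls in KARPAS-422 and 15 for the difference between lines. The gene table and the suffix setting hold fewer features, so their counts cannot be set directly against the others. The cause of the changes was not tested. Depth here is signal: the dimmest probe sets have the largest standard errors (0.28 to 0.69), and the direction of the 2 brightest B2M probe sets follows the scaling.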
